A study of Mus musculus with 6 samples.

Results

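The 9 genes described here mark periportal hepatocytes or carry out gluconeogenesis, and were chosen by name: Pck1, G6pc, Fbp1, Hal, Sds, Gls2, Cyp2f2, Pigr and Hsd17b13. They are 9 of the 34745 genes in the expression table, and all 9 were among the 11435 genes with enough signal to test. Messenger RNA of mouse liver was sequenced in 6 libraries, 1 for each of 3 tissues in each sex, to follow how males and females differ in liver cancer driven by a mutant Hras. The normal tissue came from untreated wild-type C57BL/6 mice, and the precancerous tissue and the tumour (hepatocellular carcinoma) from untreated C57BL/6 mice carrying the Hras12V transgene. All male mice were 9 months of age and all female mice 15 months, whatever the tissue, so a sex difference and an age difference cannot be told apart. The labels do not name the promoter of the transgene. Nor do they tell how many mice went into a library, or if tumour and precancerous tissue were taken from one animal. With 1 library per group, every p-value below measures only the spread between these 6 libraries. With a term for tissue and a term for sex, that spread holds any disagreement of the sexes on a tissue difference. Such disagreement cannot be told apart from variation between mice or libraries.

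The liver lobule is divided into zones along the path of the blood. Hepatocytes near the portal vein receive blood rich in oxygen and nutrients, and there they make glucose from lactate and amino acids, break down amino acids and make urea. Hepatocytes near the central vein make glutamine and bile acids and carry most of the drug-metabolizing enzymes. Gluconeogenesis is set largely at the level of transcription: glucagon acts through cyclic AMP and the factor CREB, glucocorticoids act through their receptor, and insulin opposes both through FOXO1.

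Stretches of DNA just upstream of 5 of the genes are shown because these genes span the tumour differences, from the gluconeogenic genes Pck1 and G6pc to Hsd17b13, the gene at a higher level in tumours. They are RefSeq promoter sequences on the build GRCm38.p6, written 5′ to 3′ on the strand of the gene and ending before its first annotated base. RefSeq windows were matched for 7 of the 9 genes. Capitals mark every match, on either strand, to 1 of 8 motifs searched.
Pck1, chr2:173152823-173153047, plus strand: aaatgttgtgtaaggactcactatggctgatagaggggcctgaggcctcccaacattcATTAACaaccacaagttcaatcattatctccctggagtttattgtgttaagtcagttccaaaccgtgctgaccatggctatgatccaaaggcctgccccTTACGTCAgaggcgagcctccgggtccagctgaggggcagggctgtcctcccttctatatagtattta
G6pc, chr11:101367466-101367560, plus strand: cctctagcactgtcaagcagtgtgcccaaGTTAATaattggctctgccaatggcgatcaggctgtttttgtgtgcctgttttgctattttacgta
Hal, chr10:93488518-93488767, plus strand: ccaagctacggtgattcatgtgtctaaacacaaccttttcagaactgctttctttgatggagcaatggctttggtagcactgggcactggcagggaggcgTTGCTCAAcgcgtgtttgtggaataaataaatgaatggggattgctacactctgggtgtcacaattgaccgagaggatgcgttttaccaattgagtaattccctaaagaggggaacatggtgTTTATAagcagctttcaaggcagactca
Pigr, chr1:130826434-130826683, plus strand: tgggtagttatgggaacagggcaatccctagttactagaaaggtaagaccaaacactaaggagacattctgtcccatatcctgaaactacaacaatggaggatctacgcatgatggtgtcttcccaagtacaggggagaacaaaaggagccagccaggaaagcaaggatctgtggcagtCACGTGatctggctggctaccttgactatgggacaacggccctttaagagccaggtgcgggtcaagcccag
Hsd17b13, chr5:103977411-103977638, minus strand: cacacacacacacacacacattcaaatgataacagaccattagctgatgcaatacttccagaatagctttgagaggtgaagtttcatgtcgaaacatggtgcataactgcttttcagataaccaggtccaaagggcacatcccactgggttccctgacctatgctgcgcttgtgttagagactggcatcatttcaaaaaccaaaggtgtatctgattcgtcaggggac
The Pck1 stretch held the cyclic AMP response element TTACGTCA, whose first base lay 93 bases before the RefSeq start, and ATTAAC, the reverse complement of the HNF1 motif GTTAAT. The G6pc stretch held GTTAAT itself. A second G6pc site, a palindrome that fits the same cyclic AMP motif, straddles the start of the annotated gene, and 30 bases around it are shown.
G6pc start region, chr11:101367543-101367572, plus strand: gttttgctattTTACGTAAatcaccctgaa
The cyclic AMP motif, spelled TTACGTNA, occurred in 0.788% of the 32851 RefSeq windows of 250 bases before a gene start, and GTTAAT in 6.43%. ACGTCA, the core that TTACGTNA contains when its N is C, occurred in 6.47%. The Hal stretch held the C/EBP motif TTGCNNAA, present in 9.56% of windows, and the TATA box TATAAA, read on the other strand as TTTATA and present in 12.4%. G6pc had TATAAA too, with its first base at -29 from the RefSeq start. That match lies in the 155 bases left out between the printed G6pc stretch and the RefSeq start. The Pigr stretch held the E-box CACGTG, present in 6.02%. None of these, nor the FOXO and FOXA motif TGTTTAC (3.17% of windows) or the HNF4 motif CAAAGTCCA (0.384%), was found in the windows of Hsd17b13, Cyp2f2 or Fbp1. A match describes letters in a window, not a bound site, and these libraries measured no binding.

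The male libraries held 5996585 to 7347064 counts and the female ones 15047022 to 18434508. Levels are given as FPKM, fragments per unit of gene length and of library total. The lengths used are not given in the sources used here, so FPKM compares different genes only roughly. All 10 hepatocyte markers checked were tested and none was at 0. Their summed level was 41751, 59070 and 84871 FPKM in male normal liver, precancerous liver and tumour, and 58965, 65548 and 83070 in the females. The sum was mostly Alb, at 22399, 37266 and 53377 FPKM in males and 35383, 41131 and 54600 in females. By edgeR's adjusted p, in tumours against precancerous liver 1 of the 10 fell (Apoa2) and none rose. Of all tested genes 12.1% fell and 13.8% rose there. Against normal liver 2 fell (Ttr and Apoa2) and 1 rose (Trf), where 16.1% of tested genes fell and 17.3% rose. Hnf4a, a factor that defines hepatocytes, lay between 76.4 and 94.3 FPKM in all 6 libraries. In tissue RNA, fewer cells of a type and less RNA per cell cannot be told apart.

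Together the 9 genes took 0.853%, 0.730% and 0.213% of all counts in male normal liver, precancerous liver and tumour. In the females they took 1.09%, 0.743% and 0.369% in the same order. The share was lower at each step from normal liver to tumour in each sex, and the male tumour was the lowest of the 6 libraries. Its 95% Wilson interval, which covers counting error only, ran from 0.210% to 0.216%, and that of the female tumour from 0.366% to 0.3715%. The gluconeogenic enzymes Pck1, Fbp1 and G6pc alone took 0.4235%, 0.351% and 0.0625% in males and 0.598%, 0.402% and 0.1945% in females.

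**Figure D1:**
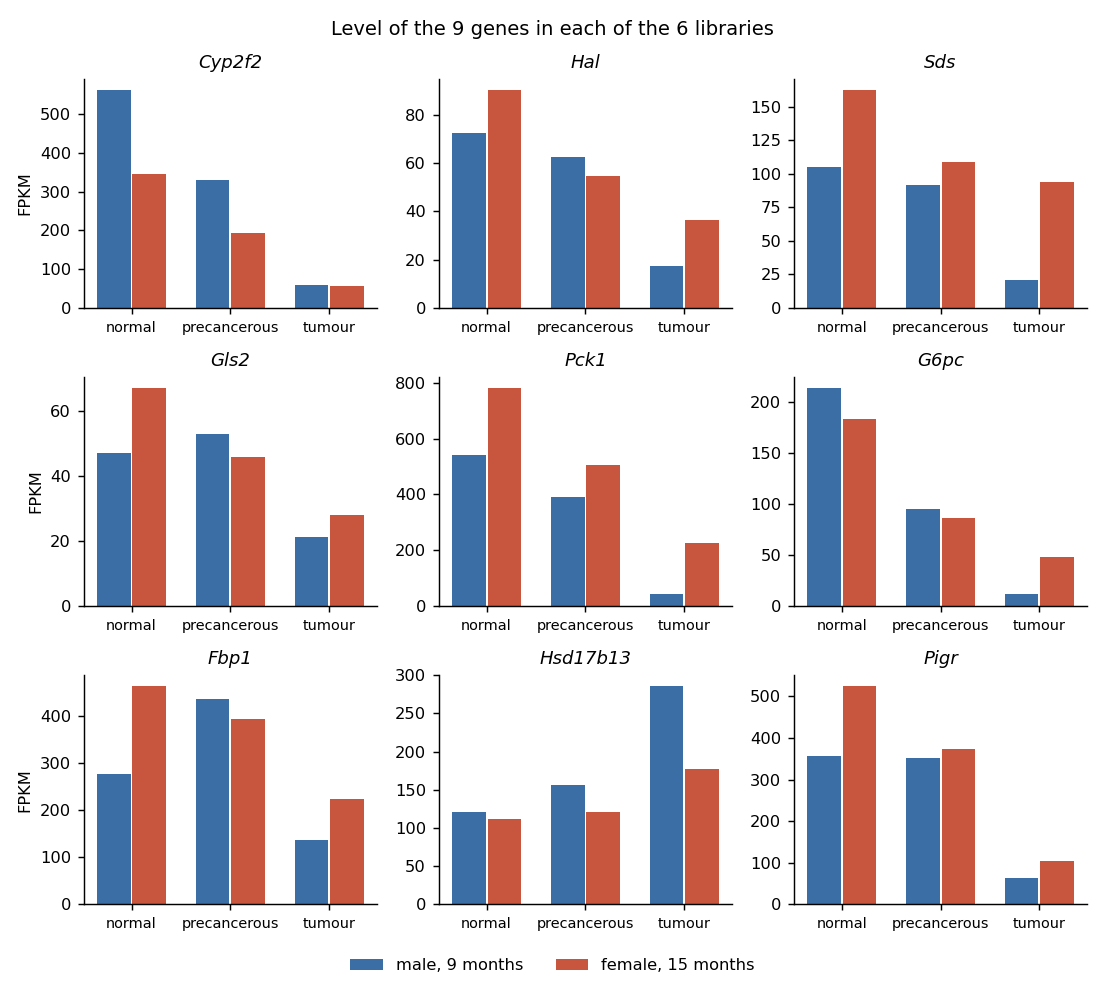
Level of each of the 9 genes in FPKM (vertical axis, starting at 0) in normal liver, precancerous liver and tumour, with 1 bar per library, males blue and females red. Each bar is a single library, so no error is drawn; 8 genes were lowest in tumours in both sexes and Hsd17b13 was highest there.

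Pck1 encodes cytosolic phosphoenolpyruvate carboxykinase, which turns oxaloacetate into phosphoenolpyruvate and commits carbon to gluconeogenesis. The gene spans chr2:173153048-173159273 on the plus strand of GRCm38, the build of the table. Its level in males was 539.6 FPKM in normal liver, 391.5 in precancerous liver and 45.2 in the tumour. In females it was 781, 504 and 226 FPKM. Both tumours lay below all 4 other libraries, and the male tumour lay 5-fold below the female one. Ranked by FPKM among all genes of its library, Pck1 stood at place 95 in male normal liver and 704 in the male tumour, against places 59 and 140 in the females.

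G6pc, chr11:101367561-101377903 on the plus strand, encodes the catalytic subunit of glucose-6-phosphatase, the enzyme that releases free glucose as the last step of the pathway. Its level in males was 213 FPKM in normal liver, 94.9 in precancerous liver and 11.9 in the tumour. In females it was 183, 86.1 and 48.1 FPKM. The 3 tissues did not overlap: both normal libraries were highest, both precancerous ones followed, and both tumours were lowest. The male tumour value rests on 211 counts, the fewest of any of the 9 genes in any library, with a 95% Poisson interval of 10.35 to 13.6 FPKM. The sexes were 4.05-fold apart in tumours, with females higher.

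Fbp1, chr13:62864753-62888282 on the minus strand, encodes fructose-1,6-bisphosphatase, which acts between the steps of Pck1 and G6pc. Its level in males was 278 FPKM in normal liver, 437 in precancerous liver and 137.5 in the tumour. In females it was 464, 394 and 225 FPKM. Tumours were again the lowest, but normal and precancerous livers overlapped, because precancerous liver was above normal liver in males and below it in females.

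Each of these enzymes has a paralogue that liver expresses at a low level. Pck2, the mitochondrial form of the carboxykinase, was at 0.5395, 1.28 and 3.40 FPKM in males and 1.02, 1.76 and 4.61 in females, in the order normal, precancerous, tumour. The ratio of Pck1 to Pck2 in FPKM therefore went from 1000 to 13.3 between male normal liver and male tumour, and from 769 to 49.05 in females. G6pc3, the ubiquitous form of the phosphatase, stayed between 0.7605 and 1.67 FPKM, and the ratio of G6pc to it went from 281 to 9.15 in males and from 113.5 to 29.4 in females. In male normal liver the ratios of 1000 and 281 rest on only 11 counts of Pck2 and 21 of G6pc3, so they are imprecise. Fbp2, the muscle form, stayed at or below 1.27 FPKM and was below the level needed for testing.

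Among the genes that feed amino acid carbon and nitrogen into the pathway, Hal encodes histidine ammonia-lyase, which opens histidine breakdown by releasing its amino group (chr10:93488768-93519304, plus strand). Hal was at 72.4, 62.4 and 17.4 FPKM in male normal liver, precancerous liver and tumour. It was at 90.4, 54.7 and 36.3 FPKM in the same tissues of females. The 3 tissues did not overlap, and the male tumour was the lowest library.

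Sds encodes serine dehydratase, which turns serine into pyruvate (chr5:120476526-120483932, plus strand). Its level in males was 104.9 FPKM in normal liver, 91.4 in precancerous liver and 20.7 in the tumour. In females it was 162.5, 108.6 and 93.7 FPKM. The female tumour thus lay above male precancerous liver, so tumour and precancerous libraries overlapped for this gene alone among the 9. The male tumour was 4.51-fold below the female tumour.

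Gls2, the liver glutaminase, releases ammonia from glutamine (chr10:128194457-128210004, plus strand). It was at 47.3, 52.9 and 21.2 FPKM in male normal liver, precancerous liver and tumour, and at 67.1, 45.7 and 27.9 FPKM in females. Both tumours lay below the other 4 libraries, and normal and precancerous livers overlapped.

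Cyp2f2, a cytochrome P450 made in periportal hepatocytes and in club cells of the airway, lies at chr7:27119909-27133660 on the plus strand. Its level in males was 562.5 FPKM in normal liver, 331 in precancerous liver and 58.3 in the tumour. In females it was 344, 193 and 58.0 FPKM. Here males stood above females in normal and precancerous liver, and the tumours of both sexes met at the same level: their 95% Poisson intervals, 54.7 to 62.1 and 55.7 to 60.3 FPKM, overlapped. Of the club cell markers Scgb1a1, Scgb3a2, Sftpc and Foxj1, none reached the level needed for testing, and Scgb3a2 and Sftpc were at 0 in all 6 libraries.

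Pigr encodes the polymeric immunoglobulin receptor, which carries IgA across epithelia and, in mice, from hepatocytes into bile (chr1:130826684-130852249, plus strand). It was at 356 FPKM in male normal liver, 352 in precancerous liver and 64.3 in the tumour, and at 525, 374 and 103 FPKM in females. The male normal and precancerous values had overlapping Poisson intervals, while both tumours lay below every other library. The 8 listed markers of B and plasma cells, whose antibodies Pigr carries, 4 of them tested, summed to 35.6, 19.0 and 65.1 FPKM in males and 609, 52.6 and 69.9 in females. Igha was at 33.5 FPKM in female normal liver and at most 10.6 in the other 5 libraries, so that library stands apart for these markers and also holds the highest Pigr level; the part of these cells in the Pigr values was not tested.

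Hsd17b13 encodes a protein of the lipid droplet surface in hepatocytes (chr5:103955440-103977410, minus strand). Its level in males was 121.5 FPKM in normal liver, 157 in precancerous liver and 286 in the tumour. In females it was 112, 120.4 and 178 FPKM. It was the exception among the 9 genes: both tumours lay above the other 4 libraries, with the male tumour highest. Its neighbour and closest paralogue Hsd17b11 stood the other way, from 42.0 to 28.3 FPKM between normal liver and tumour in males and from 38.9 to 14.2 in females. The ratio of Hsd17b13 to Hsd17b11 went from 2.90 to 10.1 in males and from 2.87 to 12.5 in females.

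Some counts could belong to a gene on the opposite strand, since no source used here says how strand was treated in counting. Of the exonic sequence of Cyp2f2, 13.5% lies under an exon of Gm15883, of Sds 29.6% under Gm15690 and Plbd2, and of Gls2 2.79% under Spryd4. The other 6 genes had no such overlap. Gm15883 had 531, 473 and 120 counts in males, equal to 6.99%, 9.21% and 12.4% of the Cyp2f2 counts, but 14, 15 and 45 counts in the deeper female libraries, at most 1.87%. Gm15690 stood at 68, 54 and 11 counts in males and at most 3 in females. The difference in Gm15883 and Gm15690 goes with sex as depth and age do, so in every contrast of males with females the 3 cannot be told apart from sex. Plbd2 stood at 441, 618 and 542 counts in males, against 1415, 1418 and 343 for Sds. In females Plbd2 stood at 1535, 1695 and 1647 counts, against 6455, 3678 and 3886 for Sds. Spryd4 stood at 111, 149 and 213 counts in males and 427, 395 and 480 in females. How many of these counts fall on the shared exonic sequence was not measured.

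Tumours were compared with precancerous liver over both sexes to ask which genes separate the carcinoma from precancerous Hras12V liver. Pigr fell, with a log2 fold change of -2.19 (SE 0.23, adjusted p = 0.00526), as did Cyp2f2 at -2.14 (SE 0.26, adjusted p = 0.0069) and Pck1 at -2.07 (SE 0.55, adjusted p = 0.0483). Fbp1 also fell, at -1.29 (SE 0.29, adjusted p = 0.0311), and so did Gls2 at -1.06 (SE 0.24, adjusted p = 0.0308). The remaining 4 did not pass: G6pc at -1.78 (SE 0.61, adjusted p = 0.0916), Hal at -1.24 (SE 0.34, adjusted p = 0.0509), Sds at -1.13 (SE 0.50, adjusted p = 0.159) and Hsd17b13 at 0.69 (SE 0.19, adjusted p = 0.0538). These are adjusted p-values of edgeR's quasi-likelihood test with a term for sex. Thus 5 of 9 genes fell and 0 rose, where 12.1% of all tested genes fell and 13.8% rose, and the median of the 9 was -1.29 against 0.03 for all tested genes. At an unadjusted p under 0.05, 8 of the 9 passed (40.4% of tested genes), DESeq2 called 8 (23.1%) and limma 4 (23.5%). FPKM values did not overlap between the tissues for 7 genes lower in tumours (21.3% of tested genes) and for Hsd17b13 higher (26.6%).

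The tumour-against-precancerous calls leaned on the processing and on single libraries. With all 6 libraries kept, Pck1 was called in 4 of 8 alternative settings, and Pigr, Cyp2f2, Fbp1 and Gls2 in 7 of 8 each. Without the male precancerous library none of the 9 was called, and adjusted p was 0.0533 for Pigr, 0.0605 for Cyp2f2, 0.177 for Fbp1, 0.19 for Gls2 and 0.226 for Pck1. Cyp2f2 and Pigr kept their call whichever other library was left out. Without the female precancerous library, adjusted p was 0.126 for Pck1, 0.0592 for Gls2 and 0.0545 for Fbp1, and without the female normal library it was 0.0558 for Pck1. Gls2 and Fbp1 also missed the threshold without the male tumour (0.0899 and 0.0888) or the female tumour (0.0662 and 0.051). Calls were gained without the female tumour for G6pc (-3.07, adjusted p = 0.00471), Sds (-2.10, adjusted p = 0.00971) and Hal (-1.78, adjusted p = 0.0187), without the male tumour for G6pc (-0.87, adjusted p = 0.0422) and without female normal liver for Hsd17b13 (0.68, adjusted p = 0.0475).

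**Figure D2:**
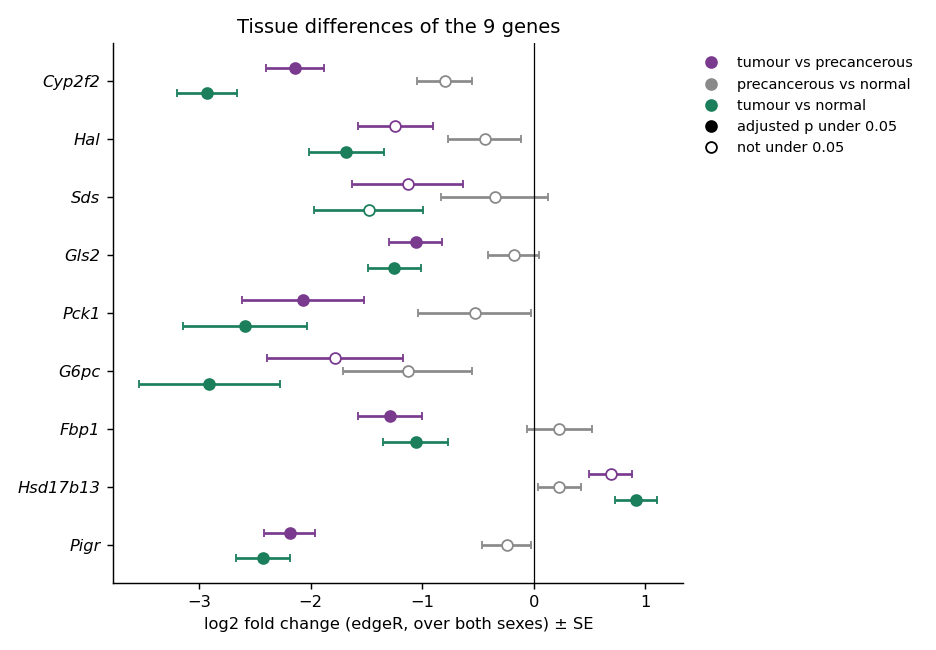
edgeR log2 fold change with its SE (horizontal axis) of each of the 9 genes over both sexes, for tumour against precancerous liver, precancerous against normal liver and tumour against normal liver; filled points have an adjusted p under 0.05. No precancerous-against-normal point is filled, 5 tumour-against-precancerous points and 8 tumour-against-normal points are, and Hsd17b13 alone lies right of 0 in both tumour comparisons.

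Precancerous liver was compared with normal liver to ask what precancerous Hras12V liver shows. Of the 9 genes 0 were called by edgeR, DESeq2 or limma, which called 0.254%, 3.22% and 0.0262% of all tested genes. Only Cyp2f2 reached an unadjusted p under 0.05, as 15.8% of tested genes did, at -0.80 (SE 0.25, edgeR adjusted p = 0.243). G6pc stood lowest, at -1.13 (SE 0.58, edgeR adjusted p = 0.425), and was the single gene of the 9 at least 2-fold lower in precancerous liver in each sex, as were 1.77% of tested genes in males and 1.25% in females. It was called without the male tumour library (-1.11, adjusted p = 0.0479) or without the female one (-1.13, adjusted p = 0.0466). Cyp2f2, Hal, Pck1 and G6pc were lower in both precancerous libraries than in both normal ones, as were 12.9% of tested genes. The median of the 9 was -0.35 against -0.01 for all tested genes.

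Tumours were compared with normal liver to give the whole distance between wild-type tissue and carcinoma. Cyp2f2 fell, with a log2 fold change of -2.93 (SE 0.27, adjusted p = 0.00237), as did G6pc at -2.91 (SE 0.63, adjusted p = 0.0233), Pck1 at -2.59 (SE 0.56, adjusted p = 0.0222) and Pigr at -2.43 (SE 0.24, adjusted p = 0.00267). Smaller falls were -1.68 for Hal (SE 0.34, adjusted p = 0.0182), -1.25 for Gls2 (SE 0.24, adjusted p = 0.0156) and -1.06 for Fbp1 (SE 0.29, adjusted p = 0.0424). Hsd17b13 rose by 0.92 (SE 0.19, adjusted p = 0.0206), and Sds at -1.48 (SE 0.49, adjusted p = 0.0742) did not pass. In this edgeR fit 7 of 9 genes fell and 1 rose, where 16.1% of tested genes fell and 17.3% rose, and the median was -1.68 against 0.00. All 9 had an unadjusted p under 0.05 (45.6% of tested genes), DESeq2 called 9 (28.4%) and limma 8 (31.2%). FPKM did not overlap for 8 genes lower (22.1% of tested genes) and 1 higher (26.7%).

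Only Cyp2f2 and Pigr kept their call in tumour against normal liver whichever library was left out. Without male or female normal liver, adjusted p was 0.057 or 0.0795 for Hal, 0.0658 or 0.0605 for Pck1, 0.0639 or 0.0512 for G6pc and 0.0571 or 0.209 for Fbp1, and 3 of the 9 were called in each case. Gls2 was lost without female normal liver (0.0844), and Fbp1 also without the male tumour (0.118) or the female tumour (0.0634). Hsd17b13 was lost without the male normal (0.0988), male precancerous (0.0683), male tumour (0.071) or female precancerous library (0.0616). Sds was gained without the female tumour (-2.49, adjusted p = 0.00462).

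The difference between tumour and precancerous liver was wider in males than in females for each of the 9 genes, as read from single libraries without a test. From precancerous liver to tumour, Pck1 was 8.65-fold lower in males and 2.23-fold lower in females, and G6pc 7.98-fold and 1.79-fold. Sds was 4.41-fold lower in males and 1.16-fold lower in females, and Hal 3.59-fold and 1.51-fold. The sexes stood closer for the other genes: Cyp2f2 was 5.67-fold lower in males and 3.34-fold in females, Pigr 5.48-fold and 3.62-fold, Fbp1 3.18-fold and 1.75-fold, and Gls2 2.49-fold and 1.64-fold. Hsd17b13 was 1.825-fold higher in the male tumour and 1.48-fold higher in the female one. At least 2-fold on log2(FPKM + 1), 8 of the 9 were lower in the male pair, where 4.70% of tested genes were, and 3 in the female pair (Cyp2f2, Pck1 and Pigr), where 4.85% were. From normal liver to tumour 8 were lower in the male pair (5.97% of tested genes) and Hsd17b13 was higher (8.38%), and 7 were lower in the female pair (6.97%), all but Sds and Hsd17b13. G6pc was 17.9-fold lower in the male tumour than in male normal liver and 3.80-fold lower in the female one, and Pck1 11.9-fold and 3.45-fold. For Gls2 and Fbp1 the normal-to-tumour difference was slightly wider in females, at -1.24 against -1.12 and -1.04 against -1.01 on the log2(FPKM + 1) scale.

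**Figure D3:**
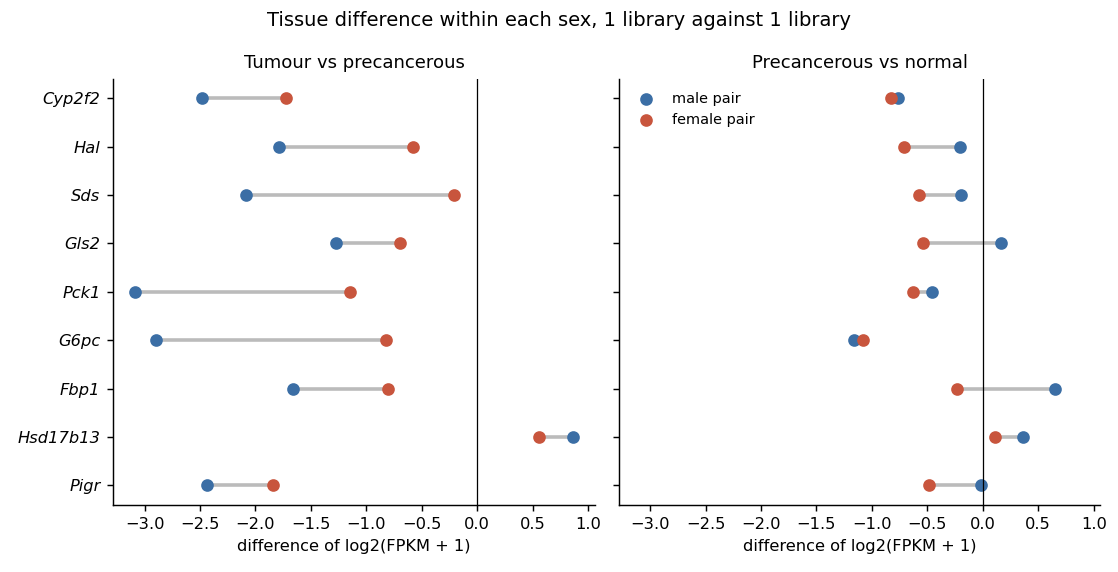
Difference of log2(FPKM + 1) between 2 libraries of the same sex (horizontal axis) for each of the 9 genes, tumour minus precancerous liver on the left and precancerous minus normal liver on the right, males blue and females red. On the left every male point lies farther from 0 than the female point, by up to 2.07 for G6pc; on the right the points for Gls2 and Fbp1 lie on opposite sides of 0.

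The same contrast was set against all genes. The tumour-minus-precancerous difference of the female pair, less that of the male pair, lay above the 95th percentile of the 11435 tested genes (0.56 on the log2 scale) for 8 of the 9 genes: 2.07 for G6pc, 1.93 for Pck1, 1.88 for Sds, 1.21 for Hal, 0.85 for Fbp1, 0.76 for Cyp2f2, 0.59 for Pigr and 0.58 for Gls2. Hsd17b13 was at -0.31, between the 5th percentile of all tested genes, -0.64, and their median, -0.03. From normal liver to tumour, 5 of the 9 lay above the 95th percentile (Cyp2f2, Hal, Sds, Pck1 and G6pc). From normal to precancerous liver 0 of 9 did. There 2 of 9 lay below the 5th percentile, -0.55, namely Fbp1 at -0.89 and Gls2 at -0.70. In that step 1 of 9 lay above 0, and the median of the 9 was -0.38. With 1 library per sex and tissue this difference has no test, and these are values of the 6 libraries only. The log2(FPKM + 1) scale also understates changes of low genes, which enter the percentiles, whereas the 9 genes lay at 11.9 FPKM or above.

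Within the tumours the sexes stood apart for 4 of the 9 genes. Pck1, Sds, G6pc and Hal were at least 2-fold higher in the female tumour than in the male one, at 5-fold, 4.51-fold, 4.05-fold and 2.09-fold, where 1.51% of tested genes were. Fbp1 was 1.63-fold higher there and Gls2 1.31-fold, and none was 2-fold lower, where 6.72% were. In normal liver none of the 9 was 2-fold apart between the sexes, where 3.27% of tested genes were higher in the female and 7.73% lower, and in precancerous liver none was either (2.07% and 6.88%). Over all 3 tissues edgeR called 0 of 9 genes between females and males, while it called 37.3% of all tested genes. At an unadjusted p under 0.05 there were 3 (49.7% of tested genes), which DESeq2 also called (30.6%), near or below those shares: Pck1 at 1.14 (SE 0.44, edgeR adjusted p = 0.0969, DESeq2 0.0187), Sds at 1.09 (SE 0.41, 0.0893 and 0.0211) and Pigr at 0.53 (SE 0.18, 0.0737 and 0.0222). Limma called 0 (35.7%). Cyp2f2, at -0.41 (SE 0.21, edgeR adjusted p = 0.172), was called without the male tumour (-0.63, 0.0385) or without the female tumour (-0.66, 0.0383), the libraries in which the sexes met.

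Pericentral hepatocyte genes showed the reverse tilt. Glul, the glutamine synthetase of the cells next to the central vein, was at 304, 235 and 205 FPKM in male normal liver, precancerous liver and tumour, and at 390, 306 and 44.5 FPKM in females. Cyp2e1, a pericentral cytochrome P450, was at 3425, 2914 and 517 FPKM in males and 4693, 4334 and 144 in females. The female tumour was therefore the library lowest in Glul and Cyp2e1, as the male tumour was the lowest in Pck1 and G6pc. Of the 14 tested pericentral genes, 10 lay below the 5th percentile of all genes for the female-less-male tumour difference and 0 above the 95th, with a median of -0.96, against 0 below and 8 above for the 9 genes, with a median of 0.85. Of 18 other periportal genes, 8 lay above and 4 below, so the tilt was not shared by that whole list. Those above showed a deeper male loss for Ass1, Asl, Cps1, Etnppl and Igfals. For the others above, the female tumour rose more: Cdh1 (1.19 in the male pair, 2.20 in the female), Gldc (0.11 and 0.85) and Sdsl (-0.13 and 0.62). The 4 below showed a deeper female loss: Hamp at -2.67, Mfsd2a at -1.06, Otc at -0.92 and Igf1 at -0.65.

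**Figure D4:**
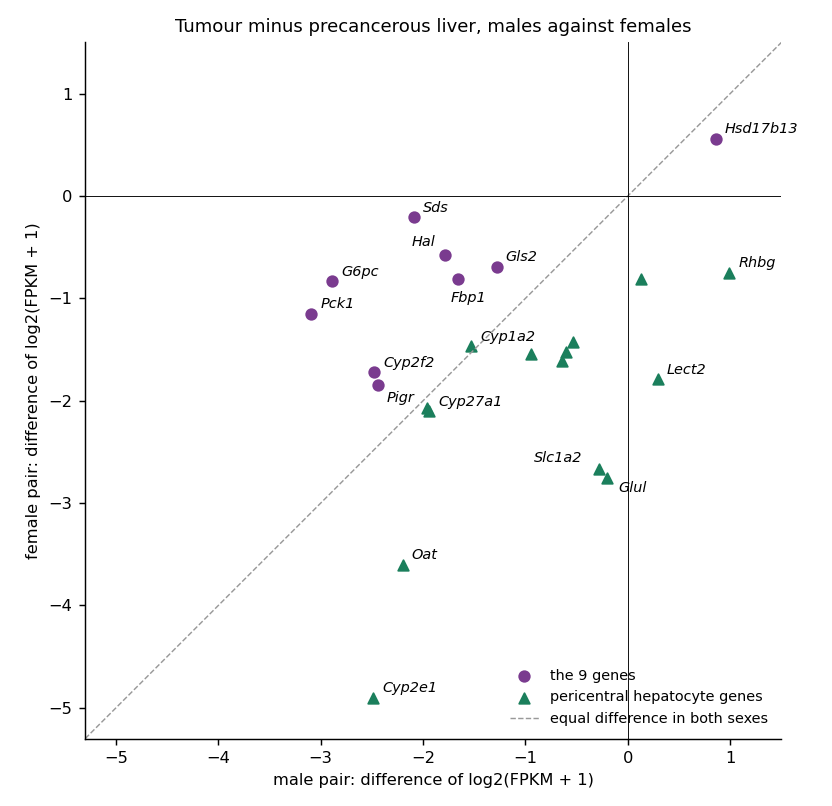
Tumour minus precancerous difference of log2(FPKM + 1) in the male pair (horizontal axis) and the female pair (vertical axis), 1 point per gene, for the 9 genes (circles) and the 14 tested pericentral genes (triangles); on the dashed line both sexes differ equally. Of the circles, 8 lie above the line and 1, Hsd17b13, below it; 13 triangles lie below it and 1, Cyp1a2, lies just above.

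The other genes of each pathway were read from lists for tumour against normal liver, by edgeR's adjusted p. Of 19 tested genes of gluconeogenesis and its substrate entry, 3 fell (Gpt2, Got2 and Mdh1) and 1 rose (Pck2), with a median of -0.31. Mdh1, the cytosolic malate dehydrogenase, fell by 1.36 (SE 0.18, adjusted p = 0.00536), and Pck2 rose by 2.30 (SE 0.21, adjusted p = 0.00235). Aqp9, the glycerol channel, stood at -1.29 (SE 0.38, adjusted p = 0.0524) and Got1, the cytosolic aspartate aminotransferase, at -1.39 (SE 0.51, adjusted p = 0.0918). The list's share of falls thus lay near the 16.1% of all tested genes, unlike that of the 9. Without the male precancerous library 1 fell, and without any of the other libraries 2 or 3.

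Of 15 tested genes of histidine, serine and glutamine breakdown, 7 fell and 0 rose, with a median of -0.66 and between 4 and 8 falls when 1 library was left out (4 without female normal liver). The falls included Tat, tyrosine aminotransferase, at -2.50 (SE 0.24, adjusted p = 0.00271), Srr, serine racemase, at -1.51 (SE 0.15, adjusted p = 0.00275) and Slc38a4, an amino acid transporter, at -1.38 (SE 0.17, adjusted p = 0.00456). Of 18 other periportal genes 8 fell and 3 rose, with a median of -0.82 (5 rises without female normal liver). Hamp, the iron hormone hepcidin, fell by 4.97 (SE 0.69, adjusted p = 0.00651) and Igfals, a carrier protein of insulin-like growth factors, fell by 3.53 (SE 0.30, adjusted p = 0.00209). Apoa4, an apolipoprotein, rose by 4.61 (SE 0.26, adjusted p = 0.00121), and Cdh1, E-cadherin, by 3.33 (SE 0.47, adjusted p = 0.00668). The urea cycle genes Ass1, Asl, Cps1 and Otc were among the 8 that fell, and Arg1 was not.

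Of 15 lipid droplet and Hsd17b family genes, 7 fell and 4 rose, with a median of -0.25 (4 falls without the female tumour, and 2 rises without female normal liver). Those that rose with Hsd17b13 were the droplet genes Pnpla3 at 4.51 (SE 0.72, adjusted p = 0.00935), Cidec at 4.05 (SE 0.47, adjusted p = 0.00401), Cidea at 3.57 (SE 0.67, adjusted p = 0.0149) and Plin2. Cidea was lost without female normal liver (0.116) or the female tumour (0.0778), and Plin2 without male normal (0.0813) or female normal liver (0.0563). Plin5, the perilipin of oxidative tissues, fell by 1.78 (SE 0.14, adjusted p = 0.00179). Of 14 pericentral genes 8 fell and 0 rose, with a median of -1.70, close to that of the 9; all 14 fell without the male tumour and 5 without female normal liver. They included Oat, ornithine aminotransferase, at -3.55 (SE 0.46, adjusted p = 0.00551), Cyp27a1 at -2.72 (SE 0.16, adjusted p = 0.00121) and Cyp1a2 at -2.30 (SE 0.20, adjusted p = 0.00227).

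Of 20 regulators of gluconeogenic transcription, 9 fell and 2 rose (Sik1 and Insr), with a median of -0.34. Klf15, a factor that responds to glucocorticoid and fasting, fell by 1.54 (SE 0.15, adjusted p = 0.00275), as did the factors Onecut1 at -1.30 (SE 0.16, adjusted p = 0.00457) and Cebpb at -1.24 (SE 0.16, adjusted p = 0.00505). Sik1, a kinase that restrains the CREB coactivators, rose by 1.08 (SE 0.21, adjusted p = 0.0165) but not without male normal (0.0579), female normal (0.0657) or female tumour library (0.076). Between 4 and 6 regulators fell when 1 library was left out, so several of the 9 falls depended on all 6. The coactivator Ppargc1a, named after its values were seen, was at 1.94, 2.02 and 0.647 FPKM in males and 2.95, 1.92 and 2.01 in females. It was lowest in the male tumour, as Pck1 and G6pc were, but that value rests on 40 counts. Nor was this particular to Ppargc1a: Foxo1, Foxo3, Creb3l3, Crtc2, Cebpb, Foxa2, Klf15, Gcgr and Nr0b2 were lowest there too. In tumour against precancerous liver Ppargc1a was not called, at -0.64 (SE 0.40, edgeR adjusted p = 0.294). Cebpa was at 5.19 FPKM in female normal liver and between 31.8 and 54.2 in the other 5 libraries, so that library stands apart for it.

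**Figure D5:**
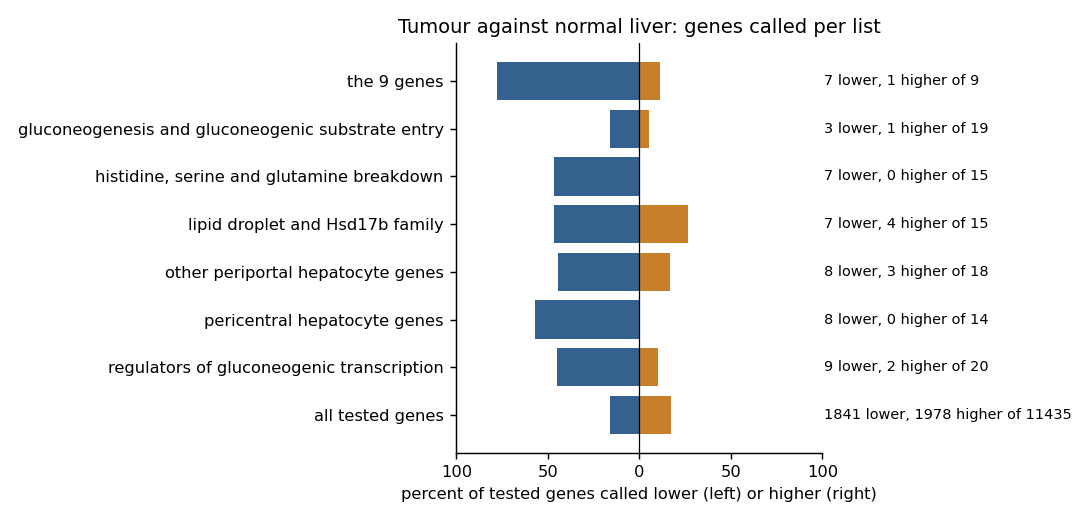
Percent of tested genes called lower (left, blue) and higher (right, orange) in tumour against normal liver at an edgeR adjusted p under 0.05, for the 9 genes, 6 lists and all 11435 tested genes. The 9 genes stood at 7 lower and 1 higher, the pericentral list at 8 lower of 14, and gluconeogenesis and its substrate entry at 3 lower of 19.

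The genes of most similar pattern were found by Euclidean distance between profiles of log2(FPKM + 1) over the 6 libraries, each centred on its own mean, among all tested genes. Nearest to Pck1 were Ass1, the urea cycle enzyme argininosuccinate synthase, at a distance of 0.872, and G6pc, at 0.898, followed by Nnmt. Nearest to G6pc was Etnppl (0.768), then Pck1 and Gm5424, a near-identical copy of Ass1 whose counts are therefore uncertain. Nearest to Sds were Got1 (0.647), Igsf11 and Hal, and nearest to Hal were Pecr (0.373), Cbs and Mug-ps1. Gls2 lay nearest to Aldh1l1 (0.188), a folate enzyme, then Mtfp1 and Cebpe, and Fbp1 to Agxt (0.346), then Adssl1 and Ngfr. Cyp2f2 lay nearest to Slc22a7 (0.345), an organic anion transporter, then Adh4 and Ces2a, a member of a family with similar copies. Pigr lay nearest to Ang (0.279), then Gnmt and Car5a, and Hsd17b13 to Acsl3 (0.112), which activates long-chain fatty acids, then Gm11974 and E330009J07Rik. Such distances over 6 libraries describe likeness of profile only.

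Markers of other cells moved with the tissues as well. The calls that follow are edgeR's for tumour against precancerous liver, where 13.8% of all tested genes rose and 12.1% fell. Of 8 macrophage and Kupffer cell markers 7 fell in tumours against precancerous liver, and their sum was 152, 249.5 and 65.5 FPKM in males and 190.5, 307 and 105.5 in females. Of 5 tested cholangiocyte markers 3 rose, and the sum of all 9 listed, mostly Spp1, was 14.1, 11.35 and 128 FPKM in males and 15.8, 18.4 and 146 in females. Of 9 stellate cell markers 5 rose and 2 fell. Endothelial markers summed to 59.7, 68.7 and 48.75 FPKM in males and 78.6, 81.3 and 53.9 in females, with 1 of 8 higher and 3 lower. The 7 listed T and NK cell markers summed to 2.52, 1.34 and 3.69 FPKM in males and 4.29, 2.37 and 4.86 in females, and 2 of the 3 tested (Cd3e and Nkg7) rose. Both rest on few counts. In precancerous liver and tumour Cd3e had 3 and 7 counts in males and 7 and 43 in females. Nkg7 had 1 and 17 in males and 7 and 37 in females. The part of these cells in the values of the 9 genes was not tested.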

How the data were processed

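The 9 genes and all lists were chosen with earlier results of these data known. The authors deposited 1 table that gives, per gene and library, a raw count and an FPKM value. Per the submitters' processing notes, TopHat2 2.0.9 and Cuffdiff were used with GRCm38 and mm10; the role of each, and how strand was treated, are not given in the sources used here. Deposited FPKM equals the deposited count divided by the library total and by a factor fixed for each gene. Between libraries it therefore carries no other scaling. Whether that factor equals the gene's length was not tested. Per the labels, the library kit was a stranded one for mRNA. Depth was 5996585 to 18434508 counts per library.

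Genes reaching an FPKM of 1 in 2 or more libraries entered edgeR 4.0.16 (R 4.3.3): quasi-likelihood test, TMM, additive terms for tissue and sex, 2 residual degrees of freedom, Benjamini-Hochberg over 11435 genes, called at an adjusted p under 0.05, two-sided. Pairs of single libraries were described as differences of log2(FPKM + 1), which understate changes of low genes, or as FPKM ratios. Alternatives were DESeq2 1.42.0, limma 3.58.1 on log2(FPKM + 1) and log2(FPKM + 0.1), other scalings and filters, no sex or tissue term, and leaving out each library. The test was tried on simulated counts. Wilson and Poisson 95% intervals cover counting error only. Genes named beside the 9 were up to 4 per list with the largest mean difference over the sexes, members of called groups of 5 or fewer, and the 3 nearest profiles of each gene; Glul, Hsd17b11, G6pc3, Fbp2, the urea cycle genes, Hnf4a, Igha and the opposite-strand genes were named after their values were seen. A withheld item is not reported here. Exon overlaps come from GENCODE M21, in which all 9 genes have the table's coordinates. Promoters come from RefSeq (GRCm38.p6), and the motifs were chosen after the windows were seen.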

Additional observations from a re-analysis of the deposited data

Results flagged for a closer look

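Between normal and precancerous liver, 2 of the 9 genes stood in opposite directions in males and females. Gls2 differed by 0.16 on the log2(FPKM + 1) scale in the male pair and by -0.54 in the female pair. Fbp1 differed by 0.65 in the male pair and by -0.23 in the female pair. Each value compares 1 library with 1 library, and the difference between the sexes was not tested.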

How the results depend on the processing

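Between tumour and precancerous liver edgeR called 2965 genes and 5 of the 9: 1783 genes with FPKM of at least 5, 113 genes and 0 of the 9 without the sex term, 8 of the 9 with DESeq2, and 458 to 2937 genes and 0 to 6 of the 9 when 1 library was left out. Between precancerous and normal liver 29 genes were called: 368 with DESeq2, 3 and 10 with limma (pseudocount 1 and 0.1), 183 without a filter, 9 with FPKM of at least 5, 0 without the sex term, and 0 to 219 with 1 library left out, with 0 to 1 of the 9. Over these leave-outs the precancerous-minus-normal value ran from -1.0 to 0.17 for Sds, -0.52 to 0.16 for Gls2 (0.03 without female normal), -0.51 to 0.04 for Pigr, each turning positive without female precancerous liver, and -0.22 to 0.68 for Fbp1, negative without male precancerous (-0.22) or male normal liver (-0.0044). Between tumour and normal liver 3819 genes and 8 of the 9 were called: 2262 genes with FPKM of at least 5, 690 genes and 2 of the 9 without the sex term, and 1923 to 3234 genes and 3 to 8 of the 9 with 1 library left out. Between the sexes 4270 genes and 0 of the 9 were called: 2315 genes with FPKM of at least 5, 1237 without the tissue term, 3 of the 9 with DESeq2, and 764 to 3729 genes and 0 to 1 of the 9 with 1 library left out; G6pc ran from -0.11 to 1.01, negative without the male (-0.07) or female tumour (-0.11). Library totals in place of TMM moved the split between higher and lower calls in females from 2083 and 2187 to 1602 and 2731, and limma gave 1507 and 2571, or 1519 and 2609 with a pseudocount of 0.1. The cause of these shifts was not tested. Counts of the 9 at least 2-fold apart did not move with the pseudocount. In both tumour comparisons, no alternative reversed the direction of any of the 9. No paired analysis was possible because the labels give no replicate numbers; the sex term matches the libraries of each sex. Leaving out 1 library leaves 1 residual degree of freedom, and the lone library of a tissue is assumed to vary like the others.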
